A study of Mus musculus with 6 samples.

Results

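The genes described here encode neurotrophic factors or their receptors, and were followed in the injured mouse retina by their gene symbols. The 9 members comprised 5 secreted factors (Bdnf, Cntf, Lif, Fgf2 and Gdnf) and 4 receptors (Ntrk2, Ntrk3, Ngfr and Il6st). Of these, 8 were among the 25168 genes with a value above 0 that could be compared over all 6 libraries, and Cntf was not. The RNA came from retinas of wild-type C57BL/6 mice, labelled as 5 weeks after birth. Every mouse was first given NMDA into the vitreous (100 mM, 2 μl), a glutamate receptor agonist that kills retinal neurons by overexcitation. After 2 days a second injection delivered either stem cell factor (SCF, the ligand of the receptor c-kit; 50 ng/μl, 2 μl) or phosphate-buffered saline, and retinas were collected 1 week later. The groups are called NMDA + SCF and NMDA + PBS, with 3 libraries each. Both carry the NMDA lesion, and no uninjured retina was analysed here. How many mice went into a library is not given in the sources used here, so the p-values measure only the spread between these libraries, which may be partly technical.

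Neurotrophic factors are secreted proteins that keep neurons alive and support their axons. The neurotrophin BDNF acts through the tyrosine kinase receptor TrkB (Ntrk2), neurotrophin 3 acts through TrkC (Ntrk3), and all neurotrophins also bind p75 (Ngfr). CNTF and LIF belong to the interleukin-6 (IL-6) family and signal through the shared subunit gp130 (Il6st) to the kinase Jak1 and the transcription factor Stat3, while FGF2 and GDNF use receptors of their own. In the injured retina, Müller glia are a known source of several of these factors, and retinal ganglion cells are a known target.

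The values were FPKM, sequenced fragments per transcript, corrected for the length of that transcript and for library size. They were given for each transcript and summed per gene. Clean reads numbered 44925938 to 48783182 per library, and 2826013 to 3742303 fragments per library could be recovered from the FPKM values of named transcripts. The 6 libraries had been quantified against 2 different lists of Ensembl transcripts. One of them, called list A, covered the 3 NMDA + SCF libraries together with NMDA + PBS replicate 1. The other, list B, covered replicates 2 and 3 of NMDA + PBS. They had 46933 transcripts in common, beside 7529 particular to list A and 8966 to list B. Gene sums used only the shared transcripts, but a fragment can still be assigned differently where its list offers another transcript of the same gene. Of all genes, 14.4% had both list B libraries above all 4 list A libraries. Treatment and list can be separated only through NMDA + PBS replicate 1. A fit with the list as a term sets NMDA + SCF against that library alone, and its values are given for every tested member and for several pathway genes.

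Rod markers were present in all 6 libraries (summed 1191 to 1551 FPKM in NMDA + PBS and 1582 to 1848 in NMDA + SCF), as were Müller glia markers (2081 to 4053 and 3145 to 3337) and ganglion cell markers (227 to 464 and 261 to 319). Lens markers came with every library, and their sum was higher in all NMDA + SCF libraries, at 457 to 9483 FPKM against 23.4 to 302. By single gene, NMDA + SCF replicate 2 was below NMDA + PBS replicate 3 for Cryaa, Cryba1 and Mip. It was above that library for Crygs, Lim2, Grifin and Bfsp2. Summed cornea markers were lower in all NMDA + SCF libraries, at 3.13 to 11.98 FPKM against 13.1 to 46.3. Krt5 and Krt14 shared this order, whereas Krt12 overlapped between the groups. The part of lens or cornea in the results was not tested. In bulk tissue, fewer cells of a type and less RNA per cell cannot be told apart.

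The members spanned a wide range of levels, on the FPKM scale that allows comparison between genes. Ngfr was highest, with a mean of 65.7 FPKM over the 6 libraries, and its lowest library stood above every library of every other member. Il6st (8.41), Ntrk3 (3.81), Fgf2 (3.38) and Lif (1.15) followed, then Bdnf (0.66), Ntrk2 (0.40) and Gdnf (0.24). Below Ngfr, the ranges of neighbours in this order overlapped. The order holds for shared transcripts only. Over all listed transcripts, Ntrk2 was at 6.27 and 6.45 FPKM and Ntrk3 at 10.3 and 8.42 in NMDA + PBS replicates 2 and 3. The Il6st mean joins 26.7 and 20.3 FPKM with list B and 0.36 to 2.17 with list A. Cntf has no shared transcript and could not be ranked or tested. Over the shared transcripts, only Ngfr and Ntrk3 had more than 10 fragments in every library, while Bdnf, Lif, Ntrk2 and Gdnf never had more than 21.

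**Figure D1:**
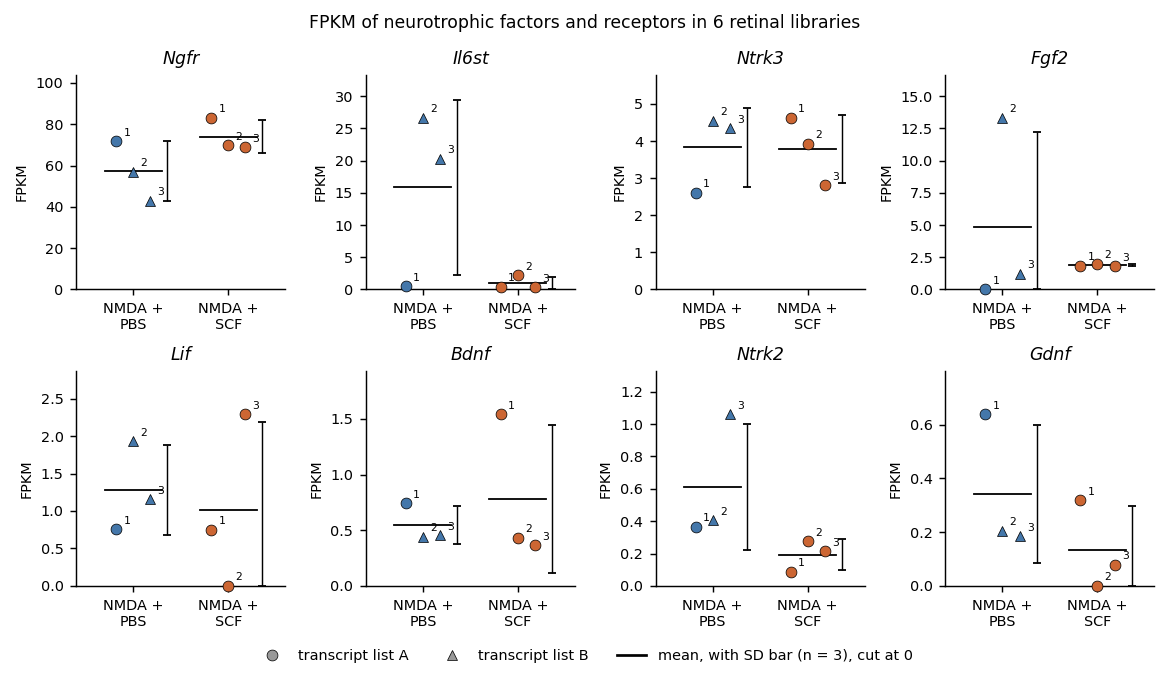
FPKM of the 8 members with shared transcripts in each library (vertical axes start at 0 and differ between panels; numbers are replicates, circles are list A and triangles list B, lines are group means and bars SD, n = 3). Il6st is high only in the 2 list B libraries, Fgf2 only in NMDA + PBS replicate 2, and Ngfr ranges from 43.0 to 83.3.

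No member differed between the treatments at the thresholds used, although the groups did not overlap for Ntrk2. In limma's moderated test on log2(FPKM + 1), 0 of the 8 members reached an unadjusted p of 0.05, beside 9.24% of all 25168 genes, and the smallest Benjamini-Hochberg adjusted p among them was 0.535. Over all genes, 0 passed the study's thresholds (fold change of at least 2 and adjusted p of at most 0.001) and 0 passed an adjusted p of 0.05, although 2325 had an unadjusted p of at most 0.05. Of these, 1089 (4.33% of all genes) were higher and 1236 (4.91%) lower in NMDA + SCF, a split that became 772 and 1439 with upper quartile scaling and 753 and 1457 with median-of-ratios scaling. With limma's voom on the recovered fragments, 0 genes passed the study's thresholds and 2 an adjusted p of 0.05. Without NMDA + PBS replicate 1, when the list and the treatment coincide fully, 55 genes passed the study's thresholds and 851 an adjusted p of 0.05. The members' fitted log2 differences were positive for 2 and negative for 6, with a median of -0.19 against -0.01 over all genes.

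Among the neurotrophin genes, Bdnf (GRCm38, chr2:109674700-109727007, plus strand) encodes the ligand of TrkB. Its level was 0.74, 0.44 and 0.45 FPKM in NMDA + PBS replicates 1 to 3 and 1.54, 0.43 and 0.36 in NMDA + SCF replicates 1 to 3. Replicate 1 of NMDA + SCF stood above the other 5 libraries, with 21 fragments (95% exact Poisson interval 13.0 to 32.1, counting error only) against 5 to 10 elsewhere. The groups overlapped, and the log2 difference was 0.15 (SE 0.30, 95% interval -0.57 to 0.86, limma adjusted p = 0.869). Without that one library it was -0.14, and with the list as a term -0.027. Bdnf-205 and Bdnf-209, both with the same 249 codons of coding sequence, carried all of the shared signal. Bdnf-201, in list B only, had 0 and 3 fragments.

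Ngfr (chr11:95568818-95587735, minus strand) encodes p75, which binds every neurotrophin and, with sortilin, their uncleaved precursors. It was read from 1 transcript, the only one annotated, and so does not depend on how fragments were divided among annotated isoforms. Whether transcripts assembled by the authors without a gene name hold Ngfr fragments was not tested. The level of Ngfr was 71.8, 57.1 and 43.0 FPKM in NMDA + PBS and 83.3, 70.0 and 69.0 in NMDA + SCF. Replicates 2 and 3 of NMDA + PBS were lowest, whereas replicate 1 lay within the NMDA + SCF range. The means were 57.3 ± 14.4 and 74.1 ± 7.98 FPKM (SD, n = 3 each), and the log2 difference was 0.39 (SE 0.22, 95% interval -0.13 to 0.91, limma adjusted p = 0.579). An exact two-sided permutation test gave p = 0.3, where 0.1 is the smallest that 3 against 3 libraries allow. Without NMDA + PBS replicate 1 the difference was 0.57 at an unadjusted limma p of 0.023 (adjusted p = 0.198), and with the list as a term it was 0.04. NMDA + PBS replicate 3, the lowest in Ngfr, was also lowest in the summed pigment epithelium markers (205 FPKM against 451 to 976 in the other 5) and microglia markers (35.9 against 140 to 302). Most of the pigment epithelium sum was Ttr, at 176 FPKM in that library. Ttr, Mlana and Best1 were lowest there, whereas Rpe65 (1.21 FPKM) and Lrat (13.0) were above NMDA + PBS replicate 2 (0.40 and 9.87). Most of the microglia sum was C1qa and C1qb, at 16.7 and 16.6 FPKM in NMDA + PBS replicate 3. These and Tmem119 were lowest there, whereas C1qc (0.48 FPKM) was above NMDA + PBS replicate 1 (0). Whether the cells behind these markers had a part in the Ngfr values was not tested.

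TrkB and TrkC each exist as a full-length receptor with an intracellular kinase and as shorter forms that lack it, made from alternative 3′ exons. Which form was listed differed between the libraries, so the stretches at which the coding sequences part are shown, 5′ to 3′ on the coding strand, from the GENCODE M21 transcripts. Lower case marks the last 21 bases that both forms share and capitals the 37 bases that follow.
Ntrk2-201: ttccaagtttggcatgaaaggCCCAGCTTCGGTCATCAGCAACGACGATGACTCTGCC
Ntrk2-202: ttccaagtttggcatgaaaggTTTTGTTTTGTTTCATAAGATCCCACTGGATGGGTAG
Ntrk3-201: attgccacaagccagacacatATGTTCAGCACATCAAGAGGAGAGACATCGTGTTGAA
Ntrk3-202: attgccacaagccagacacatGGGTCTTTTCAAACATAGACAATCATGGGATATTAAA

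The Ntrk2 pair shares its first 464 codons. The capitals of Ntrk2-201 lie in exon 13 of 18 (GRCm38, chr13:58985803-58985839, plus strand) and open a further 356 codons. Those of Ntrk2-202 lie in its last exon, exon 12 (chr13:58932024-58932060), and reach the stop codon TAG after 11 codons. The Ntrk3 pair shares 528 codons. The capitals of Ntrk3-201 lie in exon 13 of 17 (chr7:78260378-78260414, minus strand) with 296 codons to follow, and those of Ntrk3-202 in exon 13 of 14 (chr7:78304390-78304426) with 83 codons to follow.

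The TrkB gene Ntrk2 spans chr13:58806569-59133970 on the plus strand. Ntrk2-201, its full-length form of 821 codons, was in list B only, with 5.87 and 5.38 FPKM (204 and 209 fragments) in NMDA + PBS replicates 2 and 3. It made up 93.5% and 83.5% of all Ntrk2 signal in those libraries. Ntrk2-202, the short form of 476 codons, was in list A only and had 0, 0, 0.08 and 0 FPKM in NMDA + PBS replicate 1 and NMDA + SCF replicates 1 to 3. Neither form had a value in all 6 libraries, so TrkB isoforms could not be compared between treatments. Ntrk2 over its shared transcripts was 0.37, 0.41 and 1.06 FPKM in NMDA + PBS and 0.09, 0.28 and 0.21 in NMDA + SCF. These rest on 3 to 6 and 1 to 3 fragments. The groups did not overlap, as was so for 1 of the 8 members and for 14.1% of all genes (6.45% in the same direction), and the log2 difference was -0.41 (SE 0.21, 95% interval -0.91 to 0.09, limma adjusted p = 0.556; exact permutation p = 0.1). It was -0.22 without NMDA + PBS replicate 3, -0.20 with the list as a term and -1.79 over all listed transcripts. Both list B libraries stood above all list A libraries, as they did for Il6st. Apart from Ntrk2-205, the shared signal lay on Ntrk2-208 and Ntrk2-210, with 0 to 2 fragments each, and on Ntrk2-206. Ntrk2-206 (356 bases) had 1 fragment, in NMDA + PBS replicate 3, which gave 0.63 of the 1.06 FPKM of that library.

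Ntrk3, the TrkC gene (chr7:78175959-78738012, minus strand), had its full-length transcript Ntrk3-201 (825 codons) in both lists. That transcript was at 2.40, 3.45 and 4.18 FPKM in NMDA + PBS and 2.52, 2.96 and 2.80 in NMDA + SCF, from 161 to 366 fragments per library. The NMDA + SCF values lay inside the NMDA + PBS range, and the log2 difference for the transcript was -0.19 (limma adjusted p = 0.829). Its values also divided by list, with both list B libraries (3.45 and 4.18 FPKM) above every list A library. The short TrkC, Ntrk3-202 (612 codons), was in list B only, at 4.62 and 4.08 FPKM, about as much as the full-length form in the same libraries. Over its shared transcripts, Ntrk3 was 2.61, 4.55 and 4.34 FPKM in NMDA + PBS and 4.63, 3.92 and 2.80 in NMDA + SCF. Its log2 difference was -0.01 (SE 0.30, 95% interval -0.72 to 0.71, limma adjusted p = 0.997), which leaves room for changes of either sign. With the list as a term it was 0.39, and over all listed transcripts -0.62. The non-coding Ntrk3-220 (435 bases) had at most 3 fragments in a library, and those 3 gave 2.01 of the 4.63 FPKM in NMDA + SCF replicate 1.

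**Figure D2:**
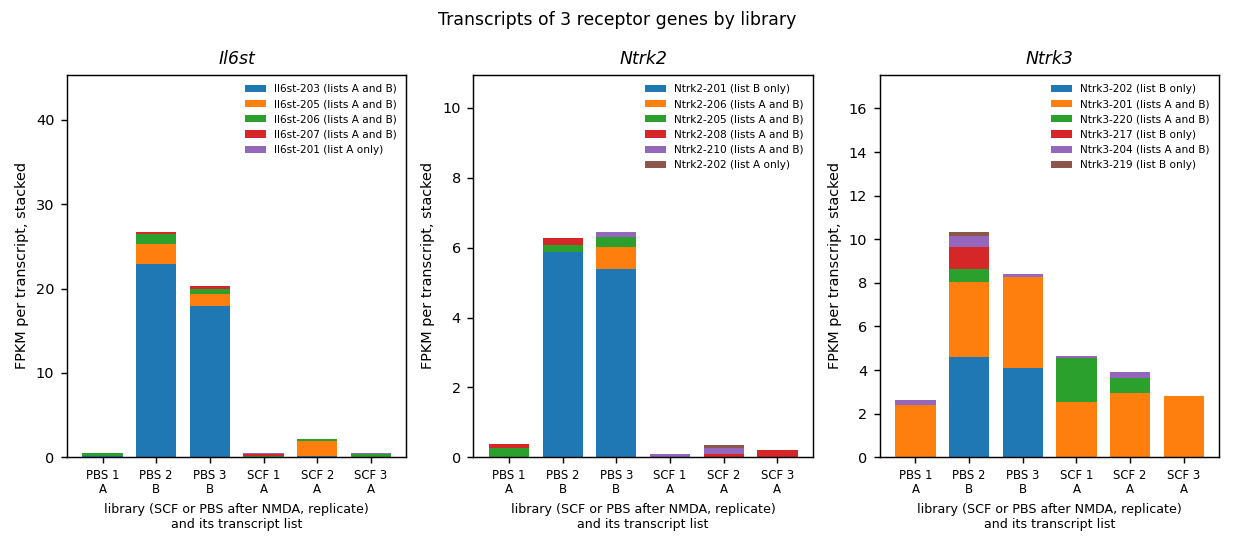
FPKM of each listed transcript of Il6st, Ntrk2 and Ntrk3, stacked by library (letters under the bars give the transcript list; a transcript outside a library's list has no value there, which is not the same as 0). Ntrk2-201 and Ntrk3-202 appear only where list B was used, whereas Il6st-203 is in both lists and reaches 22.9 and 17.9 FPKM only in the list B libraries.

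Among the IL-6 family members, Cntf (chr19:12763660-12765632, minus strand), which encodes ciliary neurotrophic factor, could be read only with list B, at 1.41 and 1.26 FPKM (6 fragments each) in NMDA + PBS replicates 2 and 3. No NMDA + SCF library had a value for it. Lif (chr11:4257557-4272514, plus strand), which encodes leukaemia inhibitory factor, was 0.75, 1.93 and 1.15 FPKM in NMDA + PBS and 0.75, 0 and 2.30 in NMDA + SCF. No library had more than 4 Lif fragments, nearly all on Lif-203, a 390-base transcript annotated without a coding sequence. The groups overlapped, and the log2 difference was -0.31 (SE 0.48, limma adjusted p = 0.822). Without NMDA + SCF replicate 2 it was 0.11, and with the list as a term 0.032.

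Il6st (chr13:112464070-112510086, plus strand) encodes gp130, the signalling subunit shared by the receptors for CNTF, LIF, oncostatin M and IL-6. Its level was 0.53, 26.7 and 20.3 FPKM in NMDA + PBS and 0.42, 2.17 and 0.36 in NMDA + SCF. NMDA + PBS replicate 1 lay among the NMDA + SCF libraries, and the values divided by transcript list: 811 and 705 fragments in the list B libraries against 5 to 8 in the 4 others. The log2 difference was -2.40 (SE 1.06, 95% interval -4.89 to 0.09, limma adjusted p = 0.535; exact permutation p = 0.2). Without NMDA + PBS replicate 1 it was -3.73 with a limma adjusted p of 0.021, and with the list as a term it was 0.26. One transcript made the division, Il6st-203, which codes for all 917 codons of gp130 and was in both lists. It was at 0.14, 22.9 and 17.9 FPKM in NMDA + PBS and 0.03, 0.10 and 0.07 in NMDA + SCF. List A also offered Il6st-201, with the same 917 codons and fewer transcribed bases, but that transcript did not hold the signal either, at 0 to 0.11 FPKM. The other shared transcripts held far less: Il6st-206 had 14 and 8 fragments with list B and 1 to 4 with list A, Il6st-205 had 3 and 2 against 0 to 2, and Il6st-207 had 3 and 5 against 0 to 3.

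Il6st was the 1 member of 8 with both list B libraries at least 4 times every list A library, as were 2.9% of all genes. The lower list B value was 9.34 times the highest list A value, that of NMDA + SCF replicate 2, which rests mostly on 2 fragments on the 322-base Il6st-205. For Il6st-203 alone, the values were 17.9 FPKM against at most 0.14. Transcripts assembled by the authors without a gene name held 8.85% to 11.4% of the summed FPKM of a library, and whether any of them hold Il6st fragments was not tested. The gene whose log2 profile over the 6 libraries was most like that of Il6st, among 7023 genes with a mean of at least 5 FPKM, was the sulphate transporter Slc26a2 (Pearson's r = 0.998, a description over 6 libraries). It was 1.35, 15.7 and 14.5 FPKM in NMDA + PBS and 1.35, 2.76 and 1.50 in NMDA + SCF, and 278 genes had an r over 0.95. The most similar profiles of the other members with a mean of at least 1 FPKM were those of Arvcf for Ngfr (r = 0.994), Agtpbp1 for Fgf2 (r = 0.990), Gm15787 for Lif (r = 0.978) and Ppp4r1 for Ntrk3 (r = 0.9747).

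Fgf2 (chr3:37348346-37410108, plus strand) encodes basic fibroblast growth factor, which is known to be induced by retinal injury. Its level was 0, 13.3 and 1.24 FPKM in NMDA + PBS and 1.84, 2.01 and 1.82 in NMDA + SCF. NMDA + PBS replicate 2 had 42 fragments (95% exact Poisson interval 30.3 to 56.8) where every other library had 0 to 4. The 3 NMDA + SCF libraries lay at 1.89 ± 0.10 FPKM (SD, n = 3), between the NMDA + PBS replicates, but each value rests on 4 fragments (95% exact Poisson interval 1.09 to 10.2) spread over different short transcripts. The log2 difference was -0.14 (SE 0.89, 95% interval -2.22 to 1.95, limma adjusted p = 0.966), and 0.95 without NMDA + PBS replicate 2 (adjusted p = 0.602). With the list as a term it was 1.53. The coding transcript Fgf2-204 was likewise highest in NMDA + PBS replicate 2, with 0, 6.49 and 0.18 FPKM in NMDA + PBS and 0.71, 0.23 and 0.70 in NMDA + SCF. The non-coding Fgf2-205, Fgf2-206 and Fgf2-207 had 5, 2 and 3 fragments in that library and at most 3 in any other.

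Gdnf (chr15:7810846-7837575, plus strand), whose product acts through GFRα1 and Ret, was 0.64, 0.21 and 0.18 FPKM in NMDA + PBS and 0.32, 0 and 0.08 in NMDA + SCF. All of it lay on Gdnf-201. NMDA + PBS replicate 1 stood above the rest, with 8 fragments against 0 to 4. The log2 difference was -0.24 (SE 0.18, 95% interval -0.67 to 0.19, limma adjusted p = 0.688). Without NMDA + PBS replicate 1 it was -0.087. With the list as a term, where that library is the only control, it was -0.54 at an unadjusted limma p of 0.035 (adjusted p = 0.714).

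With all 6 libraries, no single transcript of a member passed an adjusted p of 0.05 either. The lists held 38 transcripts of the members, of which 22 were common to both, 4 particular to list A and 12 to list B. Of the 21 shared transcripts above 0, 2 had an unadjusted limma p of at most 0.05, beside 7.98% of all 45261 transcripts. These were Il6st-203, at an unadjusted limma p of 0.026 (adjusted p = 0.591), and Ntrk2-205, at 0.0086 (adjusted p = 0.591). Ntrk2-205 had 2, 2 and 3 fragments in NMDA + PBS and 0 in each NMDA + SCF library, at or under the limit of 3 fragments that a count of 0 allows, so no fold is given. The count was 5 without NMDA + PBS replicate 1, and 1 without any one of the other 5 libraries, Ntrk2-205 each time.

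The partners of these members were read from a list of 82 genes in 12 roles, of which 66 had a testable value. For 15 of the rest, among them Ntf3, Il6, Jak2, Gfra1 and Ptn, the lists shared no transcript, and Fgf1 was at 0 in all libraries. At an unadjusted limma p of 0.05, 4 were higher and 2 lower in NMDA + SCF, 9.09% of the 66 beside 9.24% of all genes, and none of the 66 passed an adjusted p of 0.05 (0.535 for each of the 6). The count was 10 without NMDA + PBS replicate 1, 3 without NMDA + PBS replicate 3 and 2 without NMDA + SCF replicate 3. In 15 of the 66 (22.7%, beside 14.1% of all genes) the groups were fully separated, 9 with NMDA + SCF higher (7.62% of all genes) and 6 with it lower (6.45% of all genes). The median log2 difference was 0.05.

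**Figure D3:**
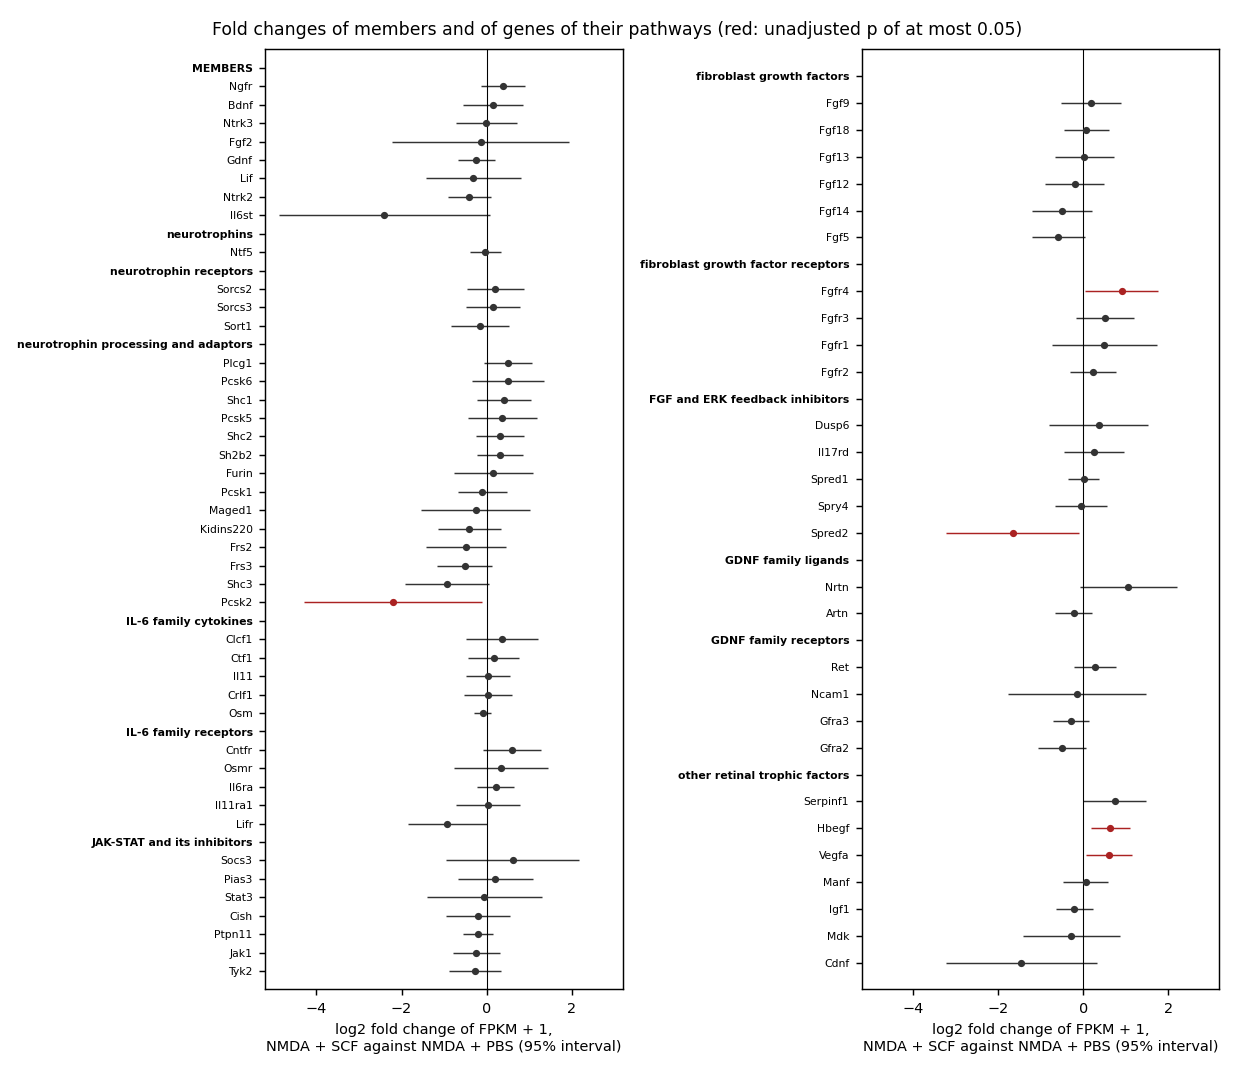
Log2 difference in FPKM + 1 between NMDA + SCF and NMDA + PBS for the 8 tested members and 63 of the pathway genes, grouped by role (points are limma estimates, bars their 95% intervals, n = 3 against 3; red marks an unadjusted p of at most 0.05). The intervals of all 8 members cross 0, and 5 pathway genes are red.

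Among the 7 other trophic factors tested, 3 were higher in every NMDA + SCF library, beside 7.62% of all genes. Hbegf and Vegfa were among these. Hbegf, an EGF receptor ligand, was 11.8, 14.0 and 10.3 FPKM in NMDA + PBS and 18.8, 21.1 and 17.8 in NMDA + SCF. All 3 NMDA + SCF libraries stood above all NMDA + PBS libraries of either list. The log2 difference was 0.64 (SE 0.19, 95% interval 0.19 to 1.09, unadjusted limma p of 0.012, adjusted p = 0.535). It was 0.66 with the list as a term. Its unadjusted p stayed at or under 0.05 in 14 of 14 alternative settings. Vegfa, the vascular endothelial growth factor, was 5.34, 7.31 and 5.32 FPKM in NMDA + PBS and 8.49, 11.5 and 8.94 in NMDA + SCF. These rest on 10, 16 and 13 against 16, 22 and 17 fragments, where Hbegf had 95 to 174 per library. The log2 difference of Vegfa was 0.61 (unadjusted limma p of 0.035, adjusted p = 0.535). It was 0.74 with the list as a term. The unadjusted p was at or under 0.05 in 8 of 14 settings, against 5 for Fgfr4.

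Of the 4 tested receptors for fibroblast growth factors, Fgfr4 had the highest mean over the 6 libraries, 2.94 FPKM, though Fgfr1 was higher in NMDA + PBS (mean 2.43 against 1.74). Fgfr4 was 2.53, 1.66 and 1.02 FPKM in NMDA + PBS and 3.65, 5.91 and 2.87 in NMDA + SCF, with no overlap and a log2 difference of 0.90 (unadjusted limma p of 0.040, adjusted p = 0.535). With the list as a term it was 0.50 (adjusted p = 0.937). The other 3 did not reach an unadjusted p of 0.05. Of the feedback inhibitors of FGF and ERK signalling, Spred1 was highest and nearly level, at 53.1 to 63.9 FPKM in NMDA + PBS and 55.7 to 60.6 in NMDA + SCF. Its relative Spred2 was 0.13, 7.06 and 3.14 FPKM in NMDA + PBS and 0.13, 0.06 and 0 in NMDA + SCF (log2 difference -1.66, unadjusted limma p of 0.040, adjusted p = 0.535). As for Il6st, its signal lay in the 2 list B libraries, and the difference was -0.09 with the list as a term. Fgf9 was the most abundant of the tested ligands of this family, at 12.7 to 26.8 and 17.2 to 26.6 FPKM.

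**Figure D4:**
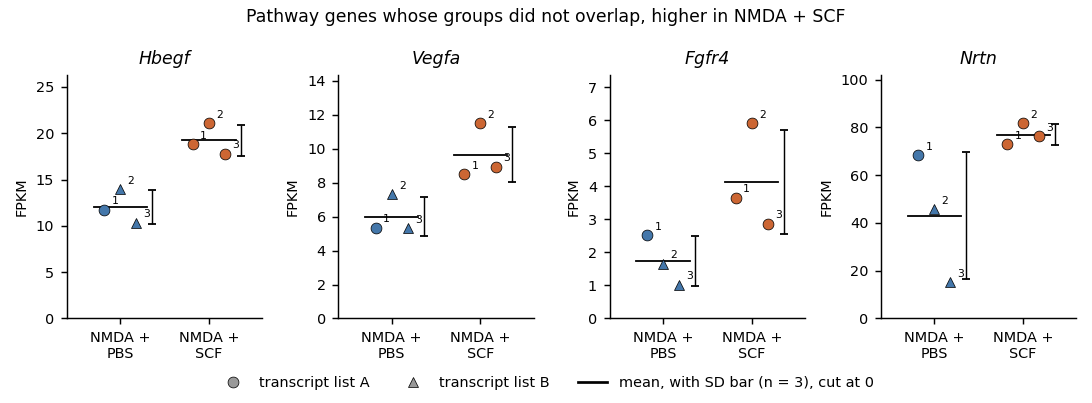
FPKM of 4 of the 9 pathway genes that were higher in every NMDA + SCF library than in every NMDA + PBS library (vertical axes start at 0; circles are list A, triangles list B, lines are means and bars SD, n = 3). For Hbegf and Vegfa the NMDA + PBS replicate 1 circle lies well below the NMDA + SCF circles, whereas for Nrtn it lies at 68.3 against 73.0 to 81.7.

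In the GDNF family, neurturin (Nrtn) was the more abundant of the 2 tested ligands beside Gdnf. It was 68.3, 45.7 and 15.2 FPKM in NMDA + PBS and 73.0, 81.7 and 76.3 in NMDA + SCF. Its log2 difference of 1.06 had an unadjusted limma p of 0.065 (adjusted p = 0.540), and NMDA + PBS replicate 3 was far below the rest. Without that library it was 0.45, without NMDA + PBS replicate 1 it was 1.50, and with the list as a term 0.17. The shared receptor kinase Ret was 8.61 to 9.59 FPKM in NMDA + PBS and 9.25 to 12.9 in NMDA + SCF, with overlap. None of the 6 tested ligands and receptors of this family reached an unadjusted p of 0.05.

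Among the genes of neurotrophin processing and adaptors, Pcsk2, Frs2 and Frs3 had both list B libraries above all list A libraries, Pcsk2 by the widest margin. Pcsk2, a proprotein convertase able to cleave precursors of secreted proteins, was 1.31, 26.8 and 21.8 FPKM in NMDA + PBS and 1.11, 1.34 and 2.08 in NMDA + SCF. Its log2 difference of -2.19 (unadjusted limma p of 0.042, adjusted p = 0.535) became 0.10 with the list as a term. Plcg1, the phospholipase that Trk receptors activate, was 11.8, 13.3 and 8.68 FPKM against 15.4, 13.7 and 20.2 (log2 difference 0.51, unadjusted limma p of 0.069, adjusted p = 0.545).

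Downstream of gp130, the transcription factor Stat3 overlapped between the groups. Stat3 was 12.6, 62.6 and 13.9 FPKM in NMDA + PBS and 20.9, 17.4 and 27.9 in NMDA + SCF. NMDA + PBS replicate 2 stood far above the others. Its feedback inhibitor Socs3 was 9.72, 68.5 and 13.8 FPKM against 23.3, 33.4 and 45.8, and the oncostatin M receptor Osmr was 4.71, 21.01 and 7.84 FPKM against 9.92, 14.0 and 13.0. In each of the 3 genes, the other 2 NMDA + PBS libraries lay below all NMDA + SCF libraries. This is only a description, because replicate 2 was set aside for its high values. The share of all genes with the same order was not counted. Ctf1, cardiotrophin 1, was the most abundant of the tested cytokines of the pathway list, at 4.83 to 8.39 and 7.77 to 8.13 FPKM.

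**Figure D5:**
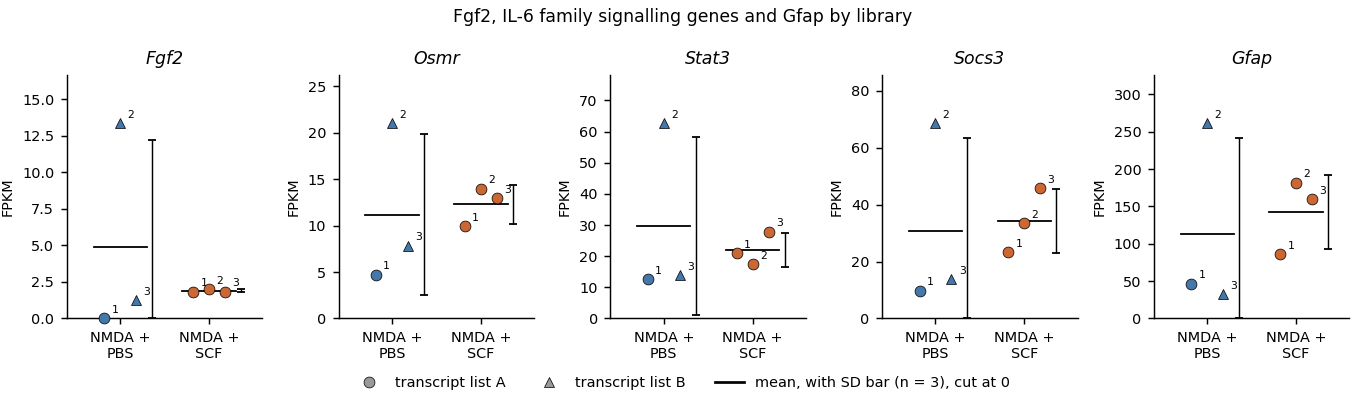
FPKM of Fgf2, of 3 genes of IL-6 family signalling and of the glial filament gene Gfap by library (vertical axes start at 0; circles are list A, triangles list B, lines are means and bars SD, n = 3). NMDA + PBS replicate 2 is the highest library in every panel, from 13.3 FPKM for Fgf2 to 261.3 FPKM for Gfap.

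NMDA + PBS replicate 2 was thus the highest library for Fgf2 and for these signalling genes together. It was highest in 20 of the 66 pathway genes (30.3%), beside 18.8% of all genes. Gfap, the filament protein of reactive Müller glia and astrocytes, was 46.5, 261.3 and 32.3 FPKM in NMDA + PBS and 86.3, 181.8 and 159.7 in NMDA + SCF. Microglia markers summed to 140, 291 and 35.9 FPKM in NMDA + PBS and 219 to 302 in NMDA + SCF. With all 6 libraries the log2 difference was 0.61 for Socs3, 0.35 for Osmr, -0.05 for Stat3 and 0.88 for Gfap. Without NMDA + PBS replicate 2 it was 1.43, 0.89, 0.67 and 1.78, given as a description because that library was left out for its high values. With the list as a term it was 1.66, 1.21, 0.74 and 1.53. The cause of the high values in this library was not tested.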

How the data were processed

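Retinal poly(A) RNA was sequenced on an Illumina HiSeq. The authors deposited FPKM per transcript for each library and a table of read totals, from which only clean read counts and the quality percent were used. The aligner and quantifier are not given in the sources used here. The labels' processing notes name mm9, but 98.2% of 63313 Ensembl transcripts have their GENCODE M21 (GRCm38) position, so GRCm38 coordinates are given.

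FPKM was summed per symbol over the 46933 shared Ensembl transcripts. Unnamed assembled transcripts were left out. Groups were compared with limma 3.58.1 (R 4.3.3; trend) on log2(FPKM + 1), over 25168 genes or 45261 transcripts above 0, with Benjamini-Hochberg adjustment. Fold changes on this scale understate those of low genes. The script was tested on simulated data. Fragments were recovered from FPKM times length (98.4% to 98.5% of values whole within 0.05). FPKM of a short transcript rests on few fragments.

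Members and lists were chosen with earlier results of these data known. Named were all members, per pathway role the gene of highest mean and those at an unadjusted p of 0.05, transcripts with at least 20% of a gene's FPKM, and for members the most similar profile. Stat3 and Gfap fall outside that rule and were chosen after their values were seen. Some genes of the pathway list are counted but not reported by name here.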

Additional observations from a re-analysis of the deposited data

How the results depend on the processing

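The alternatives were other scalings, a pseudocount of 0.1, a mean of at least 1 FPKM, a term for the replicate number or for the list, sums over every transcript listed, voom on recovered fragments, a threshold of adjusted p 0.05, and leaving out each library. The values of the list term were planned, and its p-values and counts were added after the data were seen. Its test assumes that NMDA + PBS replicate 1, the lone control of list A, varies like the others. Members at an unadjusted limma p of 0.05 numbered 1 with upper quartile scaling (Il6st), 1 with the replicate block (Il6st), 1 with all listed transcripts (Ntrk2), 1 with the list term (Gdnf), and 0 to 2 when one library was left out, against 0. Pathway genes numbered 3 with the replicate block, 0 at an adjusted p of 0.05 and 2 to 10 leaving one library out, against 6. Member transcripts numbered 1 at a mean of at least 1 FPKM, 0 at an adjusted p of 0.05 and 1 to 5 leaving one library out, against 2. Genes past the study's thresholds numbered 0 to 55 leaving one library out, the 55 without NMDA + PBS replicate 1.

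Deviations of same-numbered libraries from their group means correlated at -0.05, -0.05 and -0.08, and no NMDA + PBS library correlated best with its own number. The list difference within NMDA + PBS enters these deviations, so they cannot show whether same-numbered samples were processed together. Signs reversed with the list term for Bdnf (-0.027), Lif (0.032), Fgf2 (1.53), Ntrk3 (0.39), Il6st (0.26) and Pcsk2 (0.10). Fgf2 also reversed at a pseudocount of 0.1 (0.71), with voom (0.22) and without NMDA + PBS replicate 2 (0.95). Leaving out one library gave -0.14 to 0.31 for Bdnf, -0.75 to 0.11 for Lif, -0.97 to 0.95 for Fgf2 and -0.20 to 0.15 for Ntrk3, and reversed Bdnf (-0.14 without NMDA + SCF replicate 1), Lif (0.11 without NMDA + SCF replicate 2) and Ntrk3 (0.11, 0.08 and 0.15 without NMDA + PBS replicate 2, NMDA + PBS replicate 3 and NMDA + SCF replicate 3). Without NMDA + PBS replicate 1, adjusted p passed 0.05 for Il6st (-3.73), Pcsk2 (-3.34, adjusted p = 0.0049) and Spred2 (-2.44, adjusted p = 0.042). The other 176 of 193 values kept their sign and side of the threshold. The causes were not tested. Depth limits Bdnf, Lif, Gdnf and the shared Ntrk2 transcripts, with at most 21 fragments per library. It also limits Fgf2, with 0 to 4 fragments outside NMDA + PBS replicate 2. The transcript lists limit Ntrk2 and Cntf, and the values of Il6st divided by list.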
